A study of Mus musculus with 8 samples.

Results

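The oligoadenylate synthetase (Oas) family of the mouse was examined in primary cultured microglia that had received immunoglobulin G (IgG). The members were the 8 genes of the deposited count table that carry the symbols Oas1a, Oas1b, Oas1c, Oas1g, Oas2, Oas3, Oasl1 and Oasl2, among 55385 genes in the table. All 8 passed the filter on low counts and were tested together with the other genes that passed it, 17537 in all. Wild-type microglia, the resident macrophages of the brain, were cultured from the neocortex and hippocampus of newborn mice, and cells of several brains were pooled before culture. The IgG group received 10 µg/ml IgG for 24 h at DIV15 (day 15 in vitro). The control group is called untreated in the sample labels and PBS-treated in the methods of the study. Each group had 4 libraries of polyadenylated RNA, and libraries of equal number in both groups carry equal dates in the labels, so that they form pairs. The labels do not say whether a date is that of culture, treatment or library preparation. No deletion or transgene was present in either group, and the flasks held pooled newborn tissue. The P-values of the fit to all pairs measure the spread between pairs of libraries, not between animals.

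The library totals ran from 21287816 to 23703216 counts, and the detection limit of 3 counts corresponded to 0.124 to 0.147 CPM (the count of a gene relative to the library size scaled by TMM). The 8 genes together held 5814 to 15635 counts in the control libraries and 10061 to 20704 counts in the IgG libraries. IgG libraries 1 and 3 stood apart from the rest, with 4.85% and 5.59% of their counts on mitochondrially encoded genes against 1.97 to 2.41% in the other 6 libraries. Values from pairs 2 and 4 alone are therefore given for the calls. This fit has 4 libraries and 1 residual degree of freedom, and it called 0.867% of 17757 tested genes higher. Its p-values rest mostly on the variance that edgeR shares over genes and little on the spread between these pairs. Smaller p-values in this fit than with all pairs are therefore no stronger support. Macrophage and microglial genes were high in all libraries, with C1qa at 1370 to 2272 CPM and Csf1r at 1091 to 1744 CPM. The homeostatic microglial genes P2ry12 and Tmem119 were low, at 5.42 to 16.0 CPM and 4.69 to 8.78 CPM.

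Oas proteins are sensors of double-stranded RNA in the cytoplasm. An active synthetase joins ATP into short 2′,5′-linked oligoadenylates (2-5A), a messenger of the antiviral response. Type I interferon raises the transcription of most members of the family through the factor ISGF3, which contains Stat2 and Irf9 and binds the interferon-stimulated response element (ISRE). Some members, among them Oas1c and Oasl1, have lost synthetase activity.

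The 8 genes lie in 2 clusters on chromosome 5 (mm10). Oas2, Oas3, Oas1c, Oas1b, Oas1g and Oas1a lie between bases 120730333 and 120907521, and Oasl2 and Oasl1 lie between bases 114896936 and 114937915. The bases before the annotated start sites are shown because they allow the genes that moved together to be compared. Promoter windows from RefSeq (GRCm38.p6), from 250 bases before to 50 bases after the start, were available for 6 of the 8 genes. Oas1b and Oas2 had no entry. The 120 bases before each start are printed 5′ to 3′ on the strand of the gene, and the capitals mark the ISRE repeat, GAAA and again GAAA with 2 bases of any kind (NN) between them, or its complement with TTTC in place of GAAA:
Oas1a: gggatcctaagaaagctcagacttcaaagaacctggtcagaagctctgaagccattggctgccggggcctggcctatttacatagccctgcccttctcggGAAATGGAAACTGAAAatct
Oas1g: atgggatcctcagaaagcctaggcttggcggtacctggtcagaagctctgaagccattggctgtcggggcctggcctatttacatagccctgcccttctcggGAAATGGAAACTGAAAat
Oas1c: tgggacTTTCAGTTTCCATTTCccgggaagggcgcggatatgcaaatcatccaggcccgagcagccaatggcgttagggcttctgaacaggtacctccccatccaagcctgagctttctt
Oas3: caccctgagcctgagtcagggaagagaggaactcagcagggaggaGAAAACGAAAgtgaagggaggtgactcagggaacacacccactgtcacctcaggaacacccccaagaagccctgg
Oasl1: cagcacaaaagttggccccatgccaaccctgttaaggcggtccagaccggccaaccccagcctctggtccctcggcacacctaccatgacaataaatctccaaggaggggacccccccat
Oasl2: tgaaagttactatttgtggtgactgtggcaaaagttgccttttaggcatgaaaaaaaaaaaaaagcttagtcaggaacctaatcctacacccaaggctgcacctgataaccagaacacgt
The printed bases lie at chr5:120907526-120907645 for Oas1a, chr5:120887614-120887733 for Oas1g, chr5:120812515-120812634 for Oas1c and chr5:120777660-120777779 for Oas3, all on the minus strand. Those of Oasl1 lie at chr5:114923120-114923239 and those of Oasl2 at chr5:114896814-114896933, both on the plus strand.

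The ISRE repeat was found in the windows of 4 of these 6 genes, whereas 3.44% of all 32851 RefSeq windows of the same length held it on either strand. Oas1a and Oas1g each carried overlapping matches just before the start, at bases -20 to -5 and -18 to -3 with the start base counted as 0. The full windows of Oas1a and Oas1g were 85.3% identical over 306 aligned columns. The window of Oas3 carried a single match at bases -75 to -66. In Oas1c the matches were on the opposite strand, at bases -114 to -99. These 16 bases, chr5:120812613-120812628, end 7 bases before the annotated start of Oas1b, which lies head to head with Oas1c on the plus strand. The interferon-gamma activated site motif TTCNNNGAA, which reads the same on both strands, was found among these 6 genes in Oas1a only, at bases -98 to -90, and in 8.30% of all windows. Neither set of letters was found in the windows of Oasl1 and Oasl2. These matches are a description of the letters in the windows and not of binding.

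**Figure D1:**
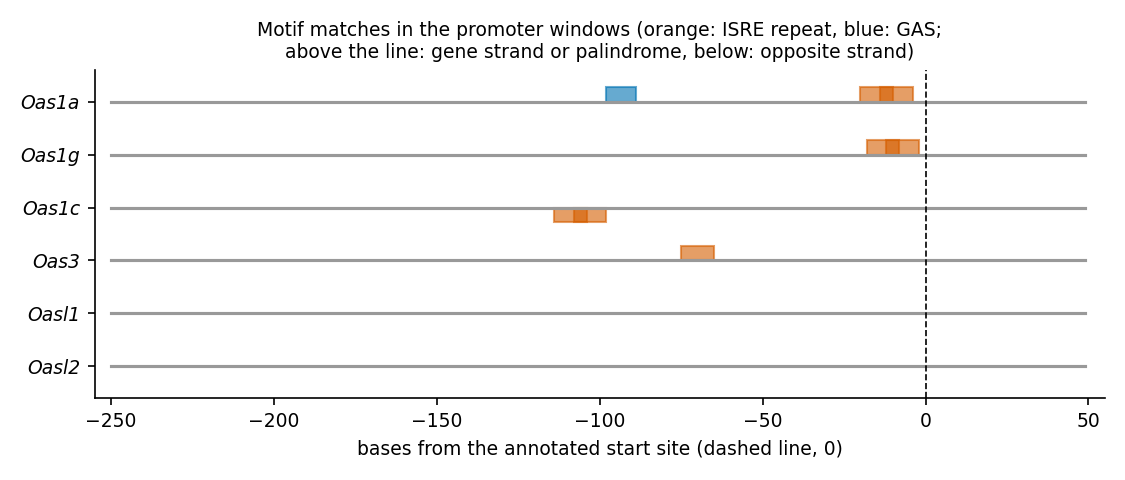
Matches of the ISRE repeat (orange) and of the interferon-gamma activated site motif (blue) along the promoter windows of the 6 genes with an entry, in bases from the annotated start site (0, dashed line). Boxes above a line are on the strand of the gene or palindromic and the box pair below the line of Oas1c is on the opposite strand. Oas1a and Oas1g hold the repeat next to the start, and Oasl1 and Oasl2 hold none.

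The first question was which of the Oas genes differed between IgG-stimulated and control microglia. Oas3, Oasl1 and Oasl2 rose with IgG, by 2.21-fold, 2.56-fold and 1.68-fold. The estimates of Oas1a, Oas1c, Oas1g and Oas2 lay between 1.53-fold and 1.64-fold and did not pass the adjustment over all genes, and that of Oas1b was 1.14-fold. The 3 calls were made by edgeR's quasi-likelihood test with the pair as a block and Benjamini-Hochberg adjustment over all 17537 genes. At the same threshold, an adjusted p under 0.05, 0.393% of all tested genes were called higher and none lower. The median log2 fold change of the 8 genes was 0.69, against -0.01 for all tested genes. Without the pair as a block no gene of the table was called, 1230 genes had an unadjusted p under 0.05, and the adjusted p-values of the 8 genes were 0.692 to 0.799. In bulk libraries, more cells of a type and more RNA per cell cannot be told apart.

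Other criteria gave other counts of Oas genes. With an unadjusted p under 0.01 and a log2 fold change above 0.5, 7 of the 8 genes counted as higher in the test with the block, all but Oas1b, against 1.48% of all tested genes. By the same criterion without the block only Oas1c counted, against 0.582% of all tested genes. With an unadjusted p under 0.05 without the block, 5 genes counted, against 4.83%. Within the pairs, 7 of the 8 genes were higher with IgG in all 4 pairs, again all but Oas1b, and 10.4% of all tested genes were. Every IgG library lay above every control library only for Oas1c, against 2.6% of all tested genes.

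**Figure D2:**
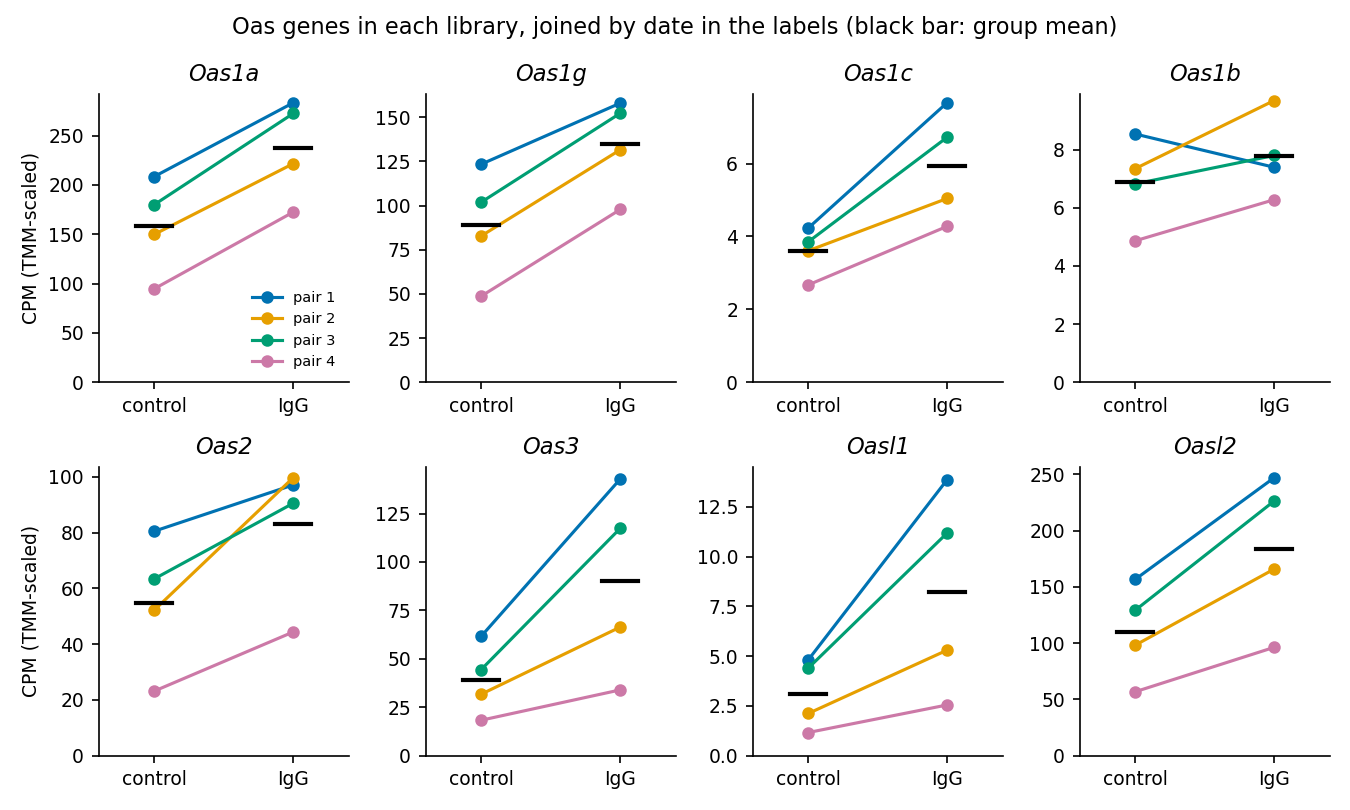
Level of each Oas gene in every library (CPM, scaled by TMM), with lines that join the control and the IgG library of the same date and black bars at the group means. Lines rise in all 4 pairs except for Oas1b in pair 1, and the libraries of pair 4 are the lowest of their group for all 8 genes.

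Oas3 is the longest synthetase of the family and is known to bind long double-stranded RNA. It measured 61.7, 31.7, 44.5 and 18.3 CPM in control libraries 1 to 4 and 143, 66.4, 117 and 34.0 CPM in IgG libraries 1 to 4. Libraries 1 and 3 were the high ones in both groups, and the groups overlapped because IgG library 4 lay below control libraries 1 and 3. The mean was 39.0 ± 18.5 CPM in the control group and 90.1 ± 49.1 CPM in the IgG group (SD, n = 4 each). For Oas3 the log2 fold change was 1.15 with an SE of 0.107 (edgeR quasi-likelihood test, adjusted p = 0.00912). Within the pairs, Oas3 was higher by 1.21, 1.06, 1.40 and 0.89 on the log2 scale. The edgeR adjusted p of Oas3 was 0.149 without pair 2, 0.0326 without pair 1, 0.0276 without pair 3 and 0.00338 without pair 4.

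Oasl1, an Oas-like protein without synthetase activity, is known to restrain translation of the interferon regulatory factor Irf7. Its level was low, at 4.81, 2.12, 4.40 and 1.16 CPM in control libraries 1 to 4 and 13.9, 5.30, 11.2 and 2.55 CPM in IgG libraries 1 to 4. These values rest on 27 to 116 counts in the control libraries and 56 to 300 counts in the IgG libraries. As for Oas3, libraries 1 and 3 were high in both groups, and only IgG library 4 lay within the range of the controls. Oasl1 had the largest estimate of the family, with a mean of 3.12 ± 1.76 CPM in the control group and 8.23 ± 5.21 CPM in the IgG group (SD, n = 4 each). The log2 fold change of Oasl1 was 1.35 with an SE of 0.146 (edgeR, adjusted p = 0.0145), and the differences within pairs 1 to 4 were 1.51, 1.29, 1.33 and 1.08. Without pair 2 the edgeR adjusted p was 0.171, without pair 1 it was 0.0739, without pair 3 it was 0.0612 and without pair 4 it was 0.00813.

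Oasl2, the Oas-like protein that has kept synthetase activity, was among the most abundant members. It measured 157, 98.2, 129 and 56.8 CPM in control libraries 1 to 4 and 247, 166, 226 and 96.3 CPM in IgG libraries 1 to 4. All IgG libraries but the fourth lay above every control library. The mean was 110.2 ± 42.9 CPM in the control group and 184 ± 67.8 CPM in the IgG group (SD, n = 4 each). The differences of Oasl2 within pairs 1 to 4 were even, at 0.66, 0.76, 0.81 and 0.76 on the log2 scale, and its log2 fold change was 0.75 with an SE of 0.0837 (edgeR, adjusted p = 0.0145). The edgeR adjusted p was 0.183 without pair 2, 0.0698 without pair 1, 0.103 without pair 3 and 0.00862 without pair 4. The calls of Oasl1 and Oasl2 were thus lost when pair 1, 2 or 3 was left out singly, and that of Oas3 only when pair 2 was. The estimates stayed about as large, with log2 fold changes of 1.17 for Oas3, 1.36 for Oasl1 and 0.74 for Oasl2 without pair 2. Over all tested genes, 14 were called without pair 1, 0 without pair 2 and 16 without pair 3, against 69 with all pairs. In pairs 2 and 4 alone, without the IgG libraries of high mitochondrial share, the edgeR adjusted p was 8.64e-09 for Oas3, 0.00527 for Oasl1 and 4.39e-05 for Oasl2, at log2 fold changes of 0.98, 1.24 and 0.76.

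Oas1a and Oas1g are the active small synthetases of the mouse, and they are near copies of each other. Oas1a measured 209, 149.9, 180.0 and 94.7 CPM in control libraries 1 to 4 and 283, 222, 273 and 172 CPM in IgG libraries 1 to 4. Oas1g measured 123, 82.8, 102 and 48.7 CPM in the controls and 158, 132, 152 and 97.8 CPM with IgG. In both genes the groups overlapped only through IgG library 4, which lay below control libraries 1 and 3. The means were 158 ± 48.7 CPM and 237 ± 51.0 CPM for Oas1a and 89.2 ± 31.7 CPM and 135 ± 27.2 CPM for Oas1g, control and IgG in turn (SD, n = 4 each). The log2 fold change of Oas1a was 0.62 with an SE of 0.0978 and an edgeR adjusted p of 0.0509, and that of Oas1g was 0.65 with an SE of 0.116 and an edgeR adjusted p of 0.0681. Neither passed when pair 1, 2 or 3 was left out singly. The edgeR adjusted p-values were then 0.143, 0.287 and 0.232 for Oas1a and 0.128, 0.398 and 0.239 for Oas1g. Without pair 4 both passed, at edgeR adjusted p-values of 0.0333 and 0.0477. In pairs 2 and 4 alone they also passed, at 0.000188 and 3.57e-06.

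Reads of these near copies can be assigned to either gene. Of the 50-base windows along the exons of Oas1a, 57.6% also occur in Oas1g, and 40.9% of the 100-base windows do. From the side of Oas1g the shares were 45.2% and 31.3%. The setting of the counting program for reads with several alignments is not given in the sources used here, so the split between Oas1a and Oas1g is uncertain. Their counts kept a narrow ratio, with Oas1g at 51.4 to 59.4% of Oas1a in the 8 libraries. The summed counts of Oas1a and Oas1g gave a log2 fold change of 0.63 with an SE of 0.104 (edgeR, adjusted p = 0.0563).

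Oas1c belongs to the small Oas proteins that lack synthetase activity. It measured 4.23, 3.61, 3.85 and 2.67 CPM in control libraries 1 to 4 and 7.68, 5.04, 6.72 and 4.28 CPM in IgG libraries 1 to 4, or 62 to 166 counts. This was the member whose groups did not overlap, although IgG library 4 exceeded control library 1 by only 1.01-fold. Its log2 fold change was 0.71 with an SE of 0.148 (edgeR, adjusted p = 0.128), from 3.59 ± 0.665 to 5.93 ± 1.55 CPM (SD, n = 4 each). In pairs 2 and 4 alone the log2 fold change of Oas1c was 0.58 (edgeR, adjusted p = 0.428). An antisense gene, Gm43069, shares 227 exon bases with Oas1c and measured 1.08 to 1.87 CPM in the control libraries and 1.73 to 2.70 CPM with IgG. Its own log2 fold change was 0.56 (edgeR, adjusted p = 0.424). The use of strand in counting is not given in the sources used here, and its part in the value of Oas1c was not tested.

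Oas1b is known as the flavivirus resistance gene of the mouse, which most laboratory strains carry in a truncated form, and the annotation calls it a polymorphic pseudogene. It measured 8.54, 7.35, 6.82 and 4.87 CPM in control libraries 1 to 4 and 7.40, 9.70, 7.80 and 6.28 CPM in IgG libraries 1 to 4. The groups overlapped, and in pair 1 the IgG library was the lower one. The mean was 6.90 ± 1.53 CPM in the control group and 7.79 ± 1.42 CPM in the IgG group (SD, n = 4 each), and the log2 fold change was 0.19 with an SE of 0.148 (edgeR, adjusted p = 0.661). Across the alternative settings the estimate stayed between 0.09 and 0.38 and passed in none of them.

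Oas2 is a synthetase of intermediate size that is anchored to membranes. It measured 80.5, 52.2, 63.4 and 23.2 CPM in control libraries 1 to 4 and 97.1, 99.7, 90.6 and 44.4 CPM in IgG libraries 1 to 4. The IgG libraries 1 to 3 lay close together above all controls, and IgG library 4 lay below every control library but the fourth. The difference was uneven between pairs, with 0.27, 0.93, 0.51 and 0.94 on the log2 scale. The mean was 54.8 ± 24.1 CPM in the control group and 83.0 ± 26.0 CPM in the IgG group (SD, n = 4 each), and the log2 fold change was 0.66 with an SE of 0.131 (edgeR, adjusted p = 0.108). In pairs 2 and 4 alone, the pairs with the larger differences, the log2 fold change was 0.94 (edgeR, adjusted p = 5.76e-08).

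The other genes of the Oas1 cluster were at or near 0. Oas1e and Oas1f had 0 counts in all 8 libraries. Oas1d had 2 counts in IgG library 1, 1 count in IgG library 3 and 0 counts elsewhere. Oas1h had 2 to 11 counts in the control libraries and 3 to 12 counts in the IgG libraries. None of these genes passed the filter on low counts.

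The members were next compared with each other within the pairs, where the date is shared. The mean differences between IgG and control were, on the log2 CPM scale with a prior count of 2, 1.30 ± 0.18 for Oasl1 and 1.14 ± 0.22 for Oas3 (SD, 4 pairs). A middle group followed with Oasl2 at 0.75 ± 0.064, Oas1c at 0.69 ± 0.17, Oas2 at 0.66 ± 0.33, Oas1g at 0.65 ± 0.27 and Oas1a at 0.62 ± 0.18. Oas1b came last at 0.19 ± 0.28. Oas3 exceeded Oasl2 in 4 of 4 pairs, by 0.39 ± 0.22, but it exceeded Oas2 by 0.48 ± 0.51 and Oas1g by 0.49 ± 0.45, each in 3 of 4 pairs. Oas1a exceeded Oas1b in 4 of 4 pairs, by 0.43 ± 0.20. Oasl1 exceeded Oas3 by 0.16 ± 0.16, in 3 of 4 pairs. The other neighbours in this order did not differ beyond their spread. Oas1b was the lowest in every pair. With 4 pairs the smallest p of an exact two-sided sign-flip test would be 0.125, and no test was made of these differences.

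**Figure D3:**
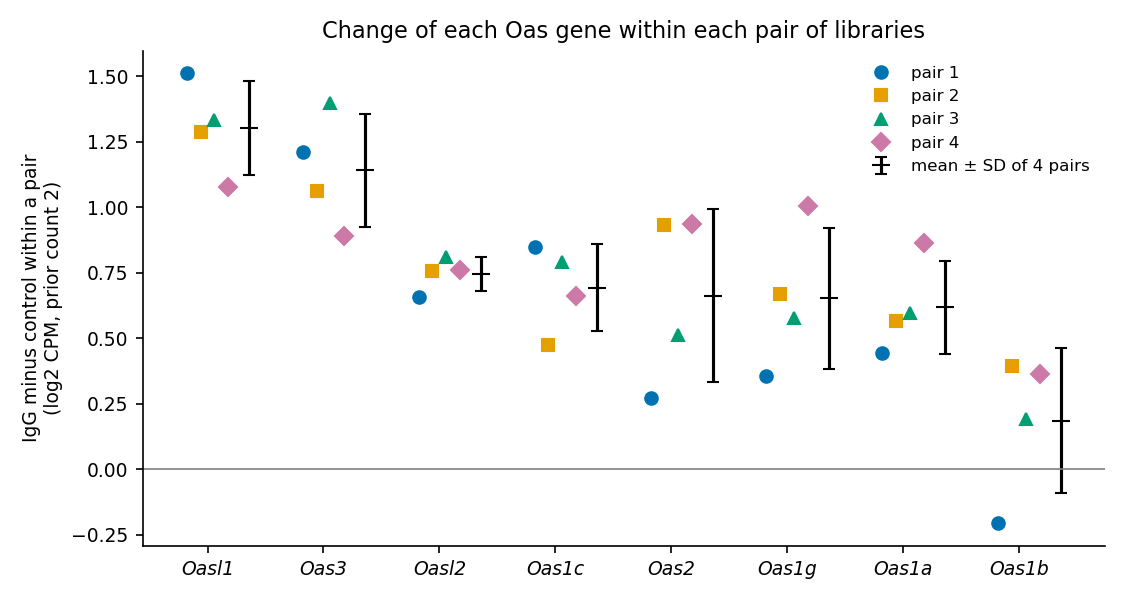
Difference between the IgG and the control library within each pair (log2 CPM, prior count 2), one symbol per pair, with the mean and SD of the 4 pairs as bars. The means of Oasl1 and Oas3 lie above those of the middle group, although in pair 4 Oas3 lies below Oas1g and Oas2, and Oas1b lies lowest, with a negative value in pair 1.

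Differences between the libraries of a pair followed the GC content of the genes in pairs 1, 3 and 4. Across 17503 genes, the Spearman correlation of the within-pair difference with the GC content of a gene was -0.38, -0.03, -0.39 and 0.31 in pairs 1 to 4, where the points of a pair share both libraries. The exons of the Oas genes have a GC content of 49.4% (Oasl2) to 56.3% (Oasl1), and the median tested gene has 49.7%. After trends on exon length and GC content were removed, the differences of Oas1a became more even, at 0.62, 0.55, 0.78 and 0.69 in pairs 1 to 4. Those of Oasl1 became less even, at 1.73, 1.28, 1.55 and 0.88. The SD over pairs fell from 0.18 to 0.098 for Oas1a and rose from 0.064 to 0.12 for Oasl2, so that the most even member was Oasl2 before and Oas1a after this step. In this setting, with the block, 6 of the 8 genes passed at an adjusted p under 0.05 (edgeR), all but Oas1b and Oas1c, while 1.14% of all tested genes were called higher, against 0.393% before the trends were removed.

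The dates in the labels were compared as well, because the level of the Oas genes varied with them within each group. Oas2, Oas3, Oasl1 and Oasl2 differed between dates with the group held constant (edgeR quasi-likelihood test over the date terms, adjusted p = 0.0360, 0.00622, 0.00888 and 0.00787). By this test 0.975% of all tested genes differed between dates. The adjusted p was 0.0692 for Oas1a, 0.0997 for Oas1g, 0.427 for Oas1c and 0.582 for Oas1b in the same edgeR test. The control libraries of 7 members fell in the order 1, 3, 2, 4 from high to low, and the IgG libraries of 6 members did as well. Library 4 was the lowest of its group for all 8 genes. No share of all tested genes is given for these orders, and the Oas genes vary together, so they are not separate observations.

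Between the highest and the lowest control library, the level differed by 1.58-fold for Oas1c and 4.14-fold for Oasl1, the extremes of the family. The ratio was 3.48 for Oas2, 3.37 for Oas3, 2.76 for Oasl2, 2.53 for Oas1g, 2.20 for Oas1a and 1.76 for Oas1b. The median ratio was 2.65 for the Oas genes and 1.23 for all tested genes. For 7 of the 8 genes the level in IgG library 4 was below that in control library 1, so that a treated library of one date lay below a control library of another date. Oas1c was the exception. No share of all tested genes is given beside this count, so it does not set the Oas genes apart.

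Levels of different members were compared per kilobase of exon. In the control group Oas1a was the highest at 84.0 ± 25.8 CPM per kb, followed by Oas1g at 38.1 ± 13.5, Oasl2 at 17.3 ± 6.73 and Oas2 at 12.3 ± 5.42 CPM per kb (SD, n = 4). Oas3 followed at 5.52 ± 2.61, Oas1b at 3.46 ± 0.769, Oas1c at 1.49 ± 0.276 and Oasl1 at 1.20 ± 0.676 CPM per kb. Each member exceeded the next in 8 of 8 libraries, except that Oas1c exceeded Oasl1 in 4 of 8. Oas1c was the higher of the pair in both libraries of pairs 2 and 4 and the lower one in both libraries of pairs 1 and 3. With IgG, Oas1c averaged 2.47 ± 0.644 and Oasl1 3.16 ± 2.00 CPM per kb. Of the summed CPM of the family, Oas3 made up 7.31 to 9.51% in the control libraries and 7.41 to 14.9% in the IgG libraries. Oas1a made up 32.2 to 37.8% and 29.6 to 37.7%. The split of counts between Oas1a and Oas1g is uncertain, and so are their separate levels, ranks and shares.

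Other genes of the 2-5A system were compared with the synthetases. The log2 fold change was 0.24 for Abce1, a protein of ribosome recycling that also takes part in the 2-5A system, and 0.07 for Pde12 and 0.11 for Akap7, which both degrade 2-5A. Of these 3 genes, 0 passed the adjustment and 0 were higher in all 4 pairs, where 0.393% and 10.4% of all tested genes did and were, so that these counts do not set the 3 genes apart. Their median was 0.11.

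Sensors of double-stranded RNA and genes that act with them were compared next. Of 8 such genes, 2 rose with IgG and none fell, where 0.393% of all tested genes rose. Zbp1, a sensor of nucleic acids in Z-form, rose by 1.02 on the log2 scale (SE 0.0910, edgeR, adjusted p = 0.00900), and Dhx58, which encodes Lgp2, rose by 0.60 (SE 0.0878, edgeR, adjusted p = 0.0381). The RNA helicases Ddx58 (RIG-I) and Ifih1 (MDA5) had log2 fold changes of 0.74 and 0.63 (edgeR, adjusted p = 0.0653 and 0.0735). The values were 0.51 for Tlr3, 0.48 for the kinase Eif2ak2, 0.29 for the editing enzyme Adar and 0.19 for the adaptor Mavs. All but Tlr3 were higher in all 4 pairs, and the median of the 8 genes was 0.55. As for the Oas genes, neither call was made without the block (edgeR, adjusted p = 0.692 for both). In pairs 2 and 4 alone the log2 fold changes were 0.97 for Zbp1 and 0.56 for Dhx58 (edgeR, adjusted p = 1.19e-08 and 0.0117).

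Among 5 genes of ISGF3 and the interferon regulatory factors, 1 rose. Irf7, which drives transcription of type I interferon genes, measured 179, 103, 153 and 55.5 CPM in control libraries 1 to 4 and 372, 213, 332 and 137 CPM in IgG libraries 1 to 4, and rose by 1.13 on the log2 scale (SE 0.0897, edgeR, adjusted p = 0.00593). In pairs 2 and 4 alone the log2 fold change of Irf7 was 1.17 (edgeR, adjusted p = 8.08e-13). Stat2 and Irf9, subunits of ISGF3, had log2 fold changes of 0.45 (edgeR, adjusted p = 0.110) and 0.25 (edgeR, adjusted p = 0.423), and both were higher with IgG in all 4 pairs. Irf1 and Irf3 had log2 fold changes of -0.07 and -0.21. Of the interferon-beta gene Ifnb1, 1 count was found in control library 2, 3 counts in IgG library 2 and 0 counts in the other libraries, so its level was at or under the limit of detection. Neither chain of the type I interferon receptor passed (Ifnar1 0.08 and Ifnar2 0.16 on the log2 scale), nor did the receptor kinases Jak1 (0.16) and Tyk2 (-0.04). Ifnar2 was nevertheless higher in all 4 pairs, and it was the only one of the 20 tested genes of these lists with every IgG library above every control library, against 2.6% of all tested genes. Over these lists, 3 of 20 tested genes rose (0 without the block and 0 without pair 2), against 0.393% of all tested genes. Of the 20, 11 were higher in all 4 pairs, against 10.4% of all tested genes, and the median log2 fold change was 0.24.

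**Figure D4:**
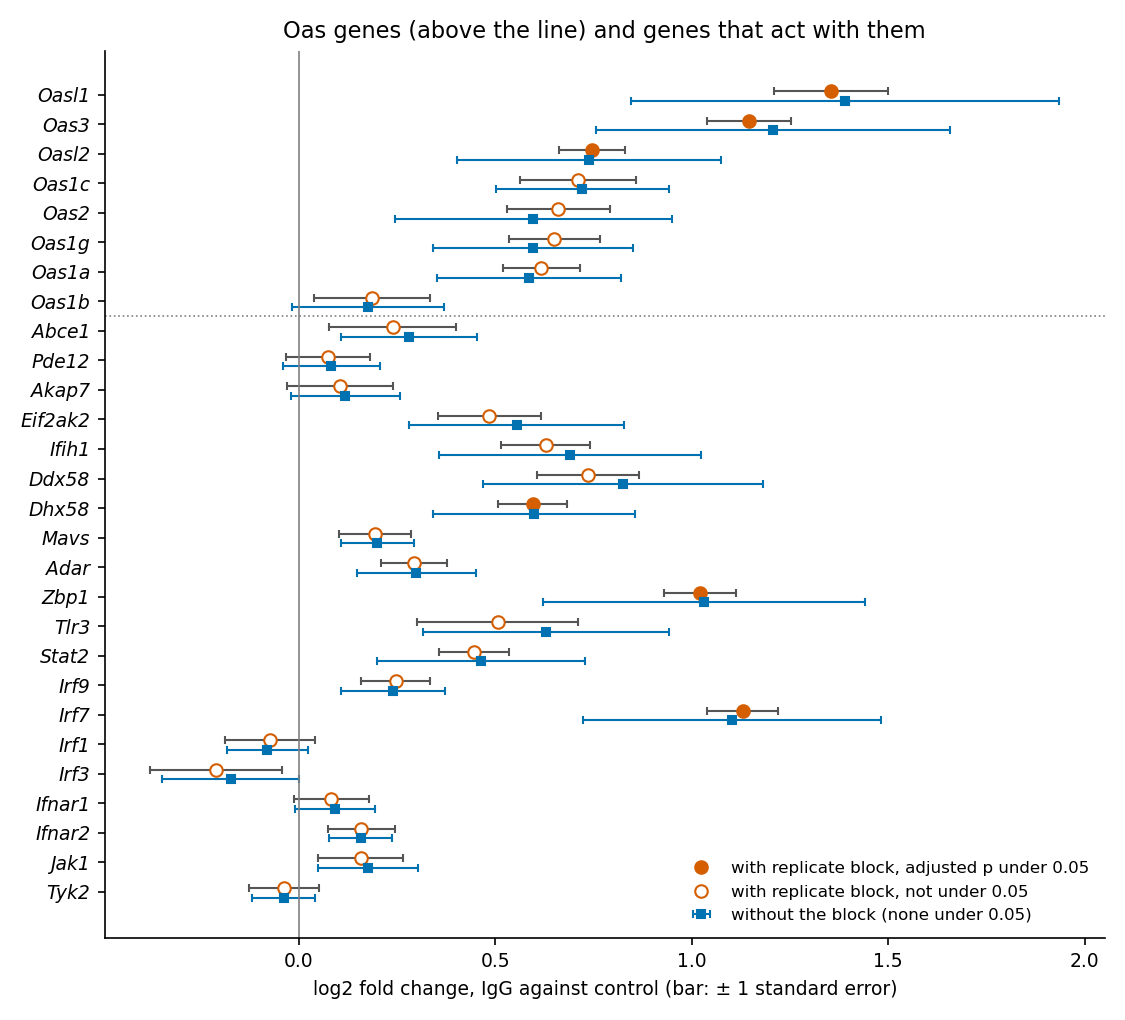
Log2 fold change of the 8 Oas genes (above the dotted line) and of the genes that act with them, with bars of 1 SE, from the edgeR fit with the pair as a block (circles) and without it (squares). Oasl1, Oas3, Oasl2, Zbp1, Dhx58 and Irf7 have an adjusted p under 0.05 with the block, no gene has one without it, and the bars of the Oas genes are wider without it.

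The profiles of the members were compared with each other across the 8 libraries. The Pearson correlation of log2 CPM between members had a median of 0.95 over the 28 pairs of genes. It ran from 0.58 (Oas1b with Oas1c) to 0.996 (Oas1a with Oas1g, whose exons share sequence). Without Oas1b the lowest was 0.83. On another measure, the absolute correlation of a tested gene with the mean standardized profile of the family had a median of 0.51 over all tested genes. The members, which are part of that mean, had r of 0.79 (Oas1b) to 0.99 (Oasl2) with it. Outside the family, 269 tested genes had r above 0.9 with it. The 10 genes outside the family whose profile over the 8 libraries was most like the mean standardized profile of the family were Gm20559, Gbp3, Fbxw17, Irf9, Epsti1, Rtp4, Usp18, Clec4a4, Irf7 and Ms4a6b, with r from 0.98 to 0.99. The libraries of a pair share a date and those of a group share the treatment, so these points are not independent. They were chosen on profiles that include the IgG libraries, so their differences with IgG are given as a description, with no test. Their log2 fold changes lay between 0.25 (Irf9) and 1.32 (Clec4a4, on 1 to 40 counts), with 0.65 for Epsti1, 0.68 for Usp18 and 0.88 for Ms4a6b. Usp18 is known to dampen signalling of the type I interferon receptor.

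Markers of cell types were counted beside these results. Beside 0.393% of all tested genes, 1 of 9 microglial markers rose with IgG, Aif1, by 0.69 on the log2 scale (edgeR, adjusted p = 0.0331), and the summed level of the 9 was 5088 to 5686 CPM in the control and 5894 to 6202 CPM in the IgG libraries. Of 5 markers of border-associated macrophages, 3 were tested and 1 rose, Ms4a7, by 0.61 (edgeR, adjusted p = 0.0381). Mrc1 and Pf4 had log2 fold changes of 0.18 and 0.17 (edgeR, adjusted p = 0.637 and 0.710). Lyve1 and Cd163 were at 0 to 0.225 CPM. The sum of the 5 was 217 to 308 CPM in the control and 309 to 441 CPM in the IgG libraries. Ms4a7 alone measured 161 to 230 CPM and 258 to 335 CPM. Oligodendrocyte markers summed to 1078 to 1675 CPM in the control and 907 to 1582 CPM in the IgG libraries, and 0 of 6 passed. Astrocyte markers summed to 111 to 124 CPM and 106 to 119 CPM, neuron markers to 10.5 to 18.1 CPM and 6.47 to 16.1 CPM, and fibroblast markers to 7.49 to 17.6 CPM and 7.72 to 14.2 CPM, and none of them passed. In pairs 2 and 4 alone the log2 fold changes were 0.82 for Aif1 and 0.58 for Ms4a7 (edgeR, adjusted p = 5.14e-06 and 0.00872). The 4 T cell markers summed to 1.64 to 2.32 CPM and 1.57 to 2.11 CPM, nearly all of it from Lck, with Cd3e and Cd3d at 0 in all libraries and Cd2 at 0 to 0.0491 CPM. The part of these cell types in the values of the Oas genes was not tested.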

How the data were processed

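RNA-seq counts of 4 control and 4 IgG-treated libraries of primary mouse microglia were analysed. The table deposited by the authors gives raw counts for each Ensembl gene, without normalization or filter. To make it, the authors removed reads of low quality or with undetermined bases or adapters and aligned the others to mm10. The submitters' processing notes name HISAT2 2.2.1, SAMtools 1.12, Picard 2.26.3, R 4.1.2, featureCounts and edgeR 3.36.0. The counting annotation and the settings for strand and for reads with several alignments are not given in the sources used here.

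GENCODE M21 gave the symbol, position, exon length and GC content for 55144 of 55385 identifiers. Counts were scaled by TMM, filtered with filterByExpr (17537 genes left) and tested in R 4.3.3 by the quasi-likelihood method of edgeR 4.0.16. The model held the group and the replicate number as a block, and p-values were adjusted by Benjamini-Hochberg over all tested genes. Log2 CPM used a prior count of 2. Totals of 21287816 to 23703216 counts put 3 counts at 0.124 to 0.147 CPM, which covers counting error only. Any 2 libraries of a group differed by more than sampling noise (chi-square per degree of freedom of at least 5.00). Pairing by replicate number came from the labels, where both libraries of a number share a date of unstated kind. Deviations from the group means correlated at 0.22 to 0.35 within pairs and at -0.30 to 0.16 between pairs, across 17537 genes, which are not independent.

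Genes were named by rule: the 8 members, the other Oas1 genes, the listed genes, and the 10 genes most like the family by Pearson correlation over the 8 libraries. The listed genes belong to the 2-5A system, sense double-stranded RNA, form ISGF3 or signal from the type I interferon receptor. Some genes of the lists are not reported here and enter no count over a list. The members and lists were chosen with earlier results of these data known. Promoter windows came from RefSeq (GRCm38.p6) and were searched on both strands.

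The test was checked on simulated counts with 200 changed genes in 8 libraries of simulated cultures. With culture differences simulated, it recovered 88.1% of 1.5-fold and 100.0% of 2-fold changes with the block, with 7 false calls among 17321 genes, whereas without the block it recovered 0% of 1.5-fold and 2-fold and 63.6% of 3-fold changes, with 0 false calls. With no culture differences simulated, 88.1% of 1.5-fold and 100.0% of 2-fold changes were recovered without the block, with 6 false calls among 17350 genes. The simulated culture differences were given to every gene, whereas 0.975% of all tested genes were called different between dates in the data. Trends with GC content and uneven responses between pairs were not simulated, and genes of low counts were not changed. The check therefore does not measure how either fit performs on these libraries. Alternatives were the fit without the block, other scalings, filters and tests (likelihood ratio, DESeq2 1.42.0, limma-voom with limma 3.58.1), removal of lowess trends on length and GC content (span 0.3), a criterion without adjustment, and the omission of pairs.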

Additional observations from a re-analysis of the deposited data

Results flagged for a closer look

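The Oas genes, the genes that act with them and the antisense gene Gm43069 were examined in each treatment, in 58 groups of 4 libraries. Of these groups, 5 held a library far from the other 3 by Dixon's criterion, where chance gives about 1 in 20. Among the members this was Oas2 in IgG library 4, at 44.4 CPM against 90.6 to 99.7 CPM in the other IgG libraries. Irf9 measured 58.2 CPM in IgG library 4 against 73.0 to 75.0 CPM. Irf3 measured 52.0 CPM in control library 3 against 44.1 to 45.4 CPM. Akap7 measured 8.74 CPM in control library 4 against 8.03 to 8.13 CPM, and Tyk2 measured 107 CPM in IgG library 2 against 97.7 to 99.3 CPM.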

How the results depend on the processing

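The estimates of the Oas genes kept their direction under all alternatives, and the median over the 8 genes stayed between 0.58 and 0.80 on the log2 scale. The number of Oas genes past the adjustment (3) depended on the test: it was 0 with no replicate block, 7 with edgeR's likelihood ratio test, 6 with DESeq2, 7 with no filter, 6 with length and GC trends removed with the replicate block, 6 in pairs 2 and 4 alone, 4 with limma-voom (Oas1a at an adjusted p of 0.0450), 7 by the criterion without adjustment, and 0 to 5 when each pair was left out in turn. The number of genes that act with them (3) was 0 with no replicate block, 6 with the likelihood ratio test, 6 with DESeq2, 7 with no filter, 6 with the trends removed, 2 with scaling by library totals alone, 3 with limma-voom, and 0 to 7 when each pair was left out. The share of all tested genes called in either direction moved as well. It went from 0.393% to 1.86% with the likelihood ratio test, 1.46% with DESeq2, 0.502% with limma-voom and 1.20% with no filter. It was 1.20% with the trends removed, 1.07% in pairs 2 and 4 and 0.211% with scaling by library totals alone. Without pair 2 no gene of the table was called, and without pair 4 182 were, against 69 with all pairs. The cause of these shifts was not tested. The number of Oas genes that differed between dates (4, beside 0.975% of all tested genes) was 3 to 6 under the alternatives. The share of all tested genes under those alternatives is not given. For single genes, 82 alternatives kept the side of the threshold, 10 lost a call, 20 gained one and 0 changed direction. Scaling by library totals alone moved the median of all tested genes to -0.11. The values of the low members rest on 27 to 300 counts for Oasl1 and 62 to 166 for Oas1c.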
